A study of Homo sapiens with 9 samples.

Results

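The REV-ERB, ROR and PAR-bZIP loop of the circadian clock was followed through 7 genes, NR1D1, NR1D2, RORA, DBP, TEF, HLF and NFIL3. They were found by symbol in GENCODE release 29 among the 58721 genes counted in each library, and 6 of the 7 had enough reads to be among the 16441 genes tested. The cells were H1299, a widely used human line from a lung carcinoma of the non-small cell type. The 9 libraries were 3 from cells given 0.1 mM melatonin, 3 from cells given siCLOCK, a small interfering RNA against the clock factor CLOCK, and 3 controls in serum free medium. The labels name that medium for the controls alone, give no treatment time or hour of harvest, and describe no non-targeting siRNA. They call the samples independent but name no cultures, so p-values measure the spread between these samples, which may be technical. In such bulk RNA, fewer cells that express a gene and less RNA per cell cannot be told apart.

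The loop is the stabilising arm of the clock. CLOCK and its partner ARNTL bind E-box elements and drive NR1D1, NR1D2 and the PAR-bZIP genes, so named for a proline- and acid-rich stretch beside their basic leucine zipper. The REV-ERB receptors NR1D1 and NR1D2 bind heme and repress ARNTL and NFIL3 at the response element called RORE, where the receptor RORA activates. DBP, TEF and HLF activate genes that carry a D-box, and NFIL3 represses at that same element.

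Of 11 promoter windows that RefSeq gives for the 7 genes, 4 held at least 1 match to these elements, and those 4 are shown because they place the elements beside the genes whose levels follow. Each window runs from 250 bases before to 50 bases after a transcription start on GRCh38.p14 and is written 5′ to 3′ on the gene's strand, with matches in capitals. The E-box was searched as CACGTG, the half-site of a RORE as AGGTCA and the D-box as TTATGTAA or TTACGTAA, all on both strands. The window of the second NR1D2 start, chr3:23945871-23946170 on the + strand, had 250 bases in an intron and 50 in an exon of NR1D2 in GENCODE. The TEF windows, both on the + strand, were chr22:41367205-41367504, with 172 exonic bases and the rest upstream of the gene, and chr22:41381692-41381991, with 63 exonic and 237 intronic bases. The NFIL3 window, chr9:91423783-91424082 on the − strand, had 80 exonic bases and 220 upstream of the gene.
NR1D2, second start: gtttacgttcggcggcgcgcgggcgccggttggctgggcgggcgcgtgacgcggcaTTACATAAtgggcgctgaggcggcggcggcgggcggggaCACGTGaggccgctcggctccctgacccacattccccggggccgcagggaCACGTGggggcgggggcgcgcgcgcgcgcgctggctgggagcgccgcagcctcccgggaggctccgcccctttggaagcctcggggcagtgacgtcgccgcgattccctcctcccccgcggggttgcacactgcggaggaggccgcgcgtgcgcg
TEF, first start: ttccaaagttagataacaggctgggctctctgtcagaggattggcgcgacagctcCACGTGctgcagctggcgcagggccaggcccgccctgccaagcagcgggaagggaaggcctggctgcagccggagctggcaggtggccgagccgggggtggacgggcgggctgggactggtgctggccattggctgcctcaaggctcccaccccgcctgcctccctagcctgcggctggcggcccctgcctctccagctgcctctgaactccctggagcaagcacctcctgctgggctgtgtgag
TEF, second start: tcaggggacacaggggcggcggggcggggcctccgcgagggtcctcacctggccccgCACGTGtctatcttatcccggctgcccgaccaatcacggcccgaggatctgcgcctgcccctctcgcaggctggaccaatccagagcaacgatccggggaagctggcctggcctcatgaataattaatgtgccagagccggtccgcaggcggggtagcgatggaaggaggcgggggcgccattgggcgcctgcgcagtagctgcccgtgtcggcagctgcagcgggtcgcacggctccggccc
NFIL3, second start: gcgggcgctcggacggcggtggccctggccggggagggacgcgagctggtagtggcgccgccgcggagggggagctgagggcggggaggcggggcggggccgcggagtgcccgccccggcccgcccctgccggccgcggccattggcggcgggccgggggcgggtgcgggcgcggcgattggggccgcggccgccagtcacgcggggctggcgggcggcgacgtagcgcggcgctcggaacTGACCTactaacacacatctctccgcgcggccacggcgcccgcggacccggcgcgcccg

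Positions are those of a match's first base relative to the transcription start, negative before it. The NR1D2 window held 2 E-boxes, at positions -155 and -105, and 1 D-box on the opposite strand, at position -194 and read here as TTACATAA. Each TEF window held 1 E-box, at position -195 in the first and -193 in the second. The NFIL3 window held 1 RORE half-site on the opposite strand, at position -9 and read as TGACCT. Over all 35116 RefSeq windows of this length, 7.26% held an E-box, 0.664% held 2 or more, 13.8% held the half-site and 1.01% a D-box, while 20 windows held both an E-box and a D-box. The windows of NR1D1, RORA, DBP and HLF, the first NR1D2 window and the first NFIL3 window had none of these letters. Bases outside the windows were not searched for any gene, so elements farther upstream or within the genes would be missed. The only RORA window, chr15:60627481-60627780, had all 300 bases in an intron of RORA in GENCODE. The annotated RORA gene begins at 61229319 on the − strand, and no window there was searched.

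**Figure D1:**
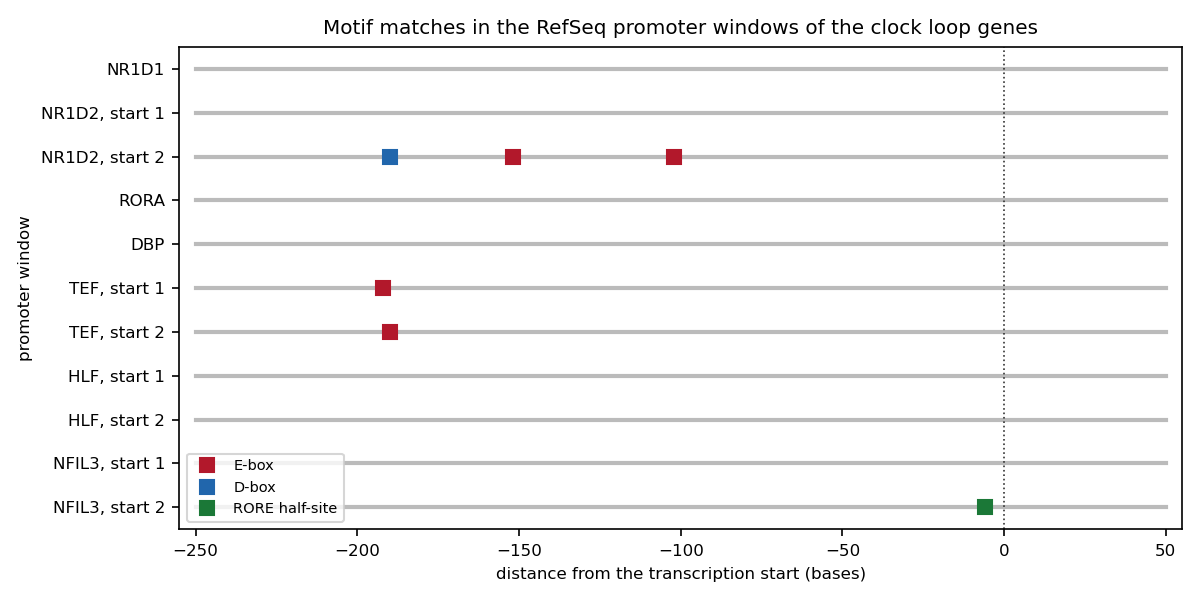
Each grey line is 1 RefSeq promoter window of 300 bases, with the distance from the transcription start in bases on the horizontal axis and squares at the centre of each motif match. The second NR1D2 start has 3 matches, each TEF start has 1 E-box and the second NFIL3 start has 1 RORE half-site.

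Counts assigned to genes ran from 15384539 to 18880902 in melatonin, from 18861583 to 19192962 in siCLOCK and from 18121101 to 19136321 in control. Levels are given as CPM, a gene's count relative to the library's total after TMM scaling. CLOCK, the siRNA's target, stood at 40.9, 41.6 and 39.0 CPM in melatonin, at 20.9, 32.0 and 38.1 CPM in siCLOCK replicates 1 to 3 and at 39.0, 38.6 and 44.4 CPM in control. The library labelled siCLOCK replicate 3 thus did not show the reduction its label implies, and the difference between siCLOCK and control did not pass (log2 fold change -0.42, SE 0.14, adjusted p = 0.340 in edgeR's quasi-likelihood test, two-sided exact permutation p = 0.1, the smallest that 3 against 3 libraries allow). That library also shared a technical mark with melatonin: unmapped reads made up 2.30% to 2.34% of reads in melatonin and 2.24% in it, against 1.24% and 1.25% in siCLOCK replicates 1 and 2 and 1.22% to 1.36% in control. Melatonin and control therefore lie in different technical sets, and their contrast and the set can be separated only through that 1 library. The mesenchymal marker VIM stood at 1466 to 1527 CPM in melatonin, 1797 to 1952 CPM in siCLOCK and 1726 to 2018 CPM in control, and the epithelial cadherin gene CDH1 was at or below 0.126 CPM in all libraries. Of 7 tested epithelial, mesenchymal and lung markers, 4 fell in melatonin against control, where 12.1% of all genes were lower, and none of the 7 passed with the technical set as a term. The summed level of the 10 listed was 1909 to 1969 CPM in melatonin, 2323 to 2557 CPM in siCLOCK and 2268 to 2604 CPM in control, and their part in the results below was not tested. Of 9 markers of leukocytes, erythroid cells, endothelium and fibroblasts the summed level was 4.16 to 5.67 CPM in melatonin, 5.30 to 6.98 CPM in siCLOCK and 5.61 to 5.63 CPM in control, with HBB at 0 everywhere. Among them COL1A1, a fibroblast collagen gene, fell in melatonin against control (-0.96, adjusted p = 0.00437), and PECAM1, an endothelial adhesion gene, was lower in melatonin than in siCLOCK (-0.71, adjusted p = 0.0147); neither passed with the set as a term (adjusted p = 0.0986 and 0.0584).

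The loop was led by the repressors. Per kilobase of exon, which allows genes to be compared, control levels were 12.3 CPM per kb ± 0.0854 (SD, n = 3) for NFIL3, 5.67 ± 0.349 for NR1D2, 3.51 ± 0.269 for NR1D1, 2.60 ± 0.367 for DBP, 2.50 ± 0.277 for TEF, 0.234 ± 0.0543 for RORA and 0.0516 ± 0.00791 for HLF. DBP and TEF, neighbours in that order, did not differ beyond their spread. Among 13061 tested protein-coding genes, NFIL3 ranked at the 73.7th percentile of control levels per kb, NR1D2 at the 52.7th and RORA at the 5.77th. NFIL3 made up 46.6% to 51.4% of the 7 genes' summed level per kb in melatonin, 46.3% to 59.9% in siCLOCK and 43.8% to 48.2% in control. NR1D2 took 21.9% to 22.3% in melatonin, 9.49%, 17.3% and 21.0% in siCLOCK replicates 1 to 3, and 20.7% to 21.5% in control. Exon lengths are unions over all annotated transcripts, 17.0 kb for RORA, so a gene used through a short transcript is understated on this scale.

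**Figure D2:**
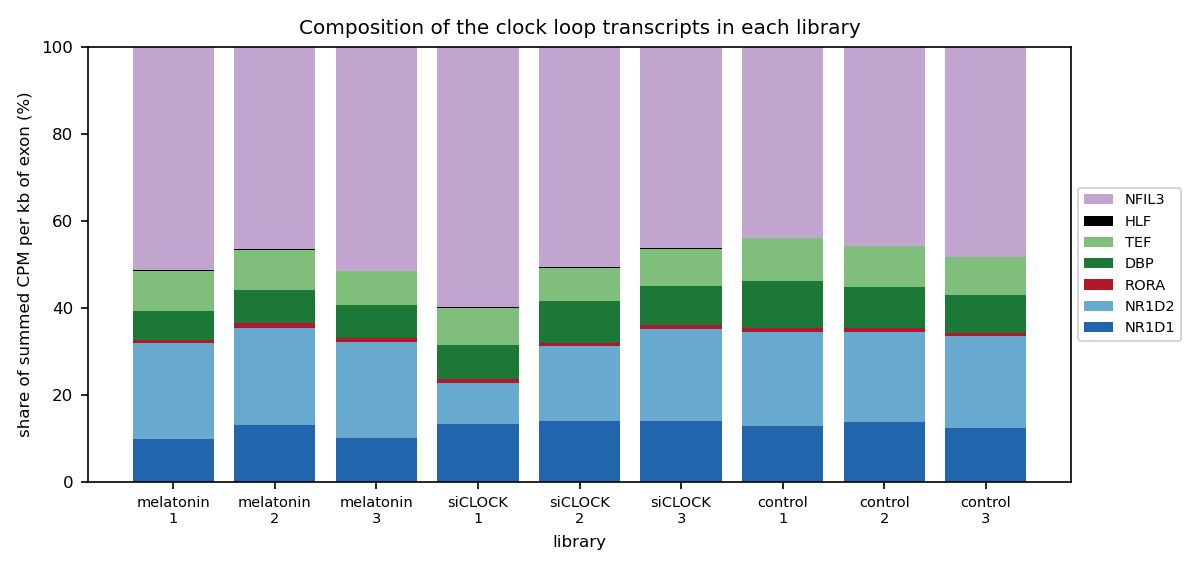
Stacked bars give each gene's share, in percent, of the 7 genes' summed CPM per kb of exon in each of the 9 libraries. NFIL3 is the largest share throughout, and NR1D2 is smallest in siCLOCK replicate 1 at 9.49%.

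NR1D2 (ENSG00000174738.12, chromosome 3, 23945260 to 23980618 on GRCh38, + strand), the REV-ERB beta repressor, was the tested member that varied most over the 9 libraries. It stood at 33.9, 33.2 and 33.5 CPM in melatonin, at 12.8, 25.7 and 30.9 CPM in siCLOCK replicates 1 to 3 and at 35.3, 32.3 and 31.4 CPM in control. All siCLOCK libraries lay below all melatonin and control libraries, and melatonin lay within the control range. In melatonin against siCLOCK NR1D2 was higher, with a log2 fold change of 0.53 (SE 0.18, 95% interval 0.15 to 0.91, adjusted p = 0.0478). In siCLOCK against control it was at -0.51 (SE 0.18, interval -0.89 to -0.13) and did not pass (adjusted p = 0.393), and in melatonin against control at 0.02 (interval -0.35 to 0.39, adjusted p = 0.949). The model gives a gene the same spread in all groups, so this last interval also takes in the siCLOCK libraries. The coefficient of variation of NR1D2 was 40.4% in siCLOCK, 1.03% in melatonin and 6.16% in control.

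The NR1D2 call was at the edge of the threshold. It ended when any 1 of the libraries other than the library labelled siCLOCK replicate 3 was left out (adjusted p = 0.0544 to 0.117), and with the technical set as a term (0.12, adjusted p = 0.792). It also ended with DESeq2 (adjusted p = 0.226), with a filter of 5 CPM in 3 libraries (adjusted p = 0.0638), with the 6 libraries of that comparison alone (adjusted p = 0.0997) and in the counts of 1 strand (adjusted p = 0.0801). The size of the difference rested on siCLOCK replicate 1. Without that library the melatonin against siCLOCK value was 0.24 (adjusted p = 0.0731), and against the library labelled siCLOCK replicate 3 alone, which shares the technical mark of melatonin, it was 0.11 (SE 0.18, adjusted p = 0.807). In siCLOCK against control it was -0.22 (adjusted p = 0.312) without siCLOCK replicate 1. With the library labelled siCLOCK replicate 3 left out, NR1D2 was the 1 member past the threshold in siCLOCK against control, at -0.78 (adjusted p = 0.0227), where 0.617% of 16706 genes passed.

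NR1D2 and CLOCK took the same order over the siCLOCK libraries, as did NR1D1 and TEF, but not RORA, DBP or NFIL3. Relative to the control mean, NR1D2 was at 38.7%, 78.0% and 93.7% in siCLOCK replicates 1 to 3 and CLOCK at 51.5%, 78.7% and 93.8%. Their coefficient of variation over these 3 libraries was 40.4% for NR1D2 and 28.7% for CLOCK, above 99.6% and 99.1% of 11169 genes of at least 5 CPM, where counting error alone gives 4.80% and 4.19%. Over the melatonin libraries NR1D2 varied by 1.03%, less than its counting error of 4.07%. The ratio of NR1D2 to CLOCK per kb was 1.67, 1.61 and 1.74 in melatonin, 1.23, 1.62 and 1.64 in siCLOCK and 1.83, 1.69 and 1.43 in control, so that siCLOCK replicate 1 alone lay below every other library.

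**Figure D3:**
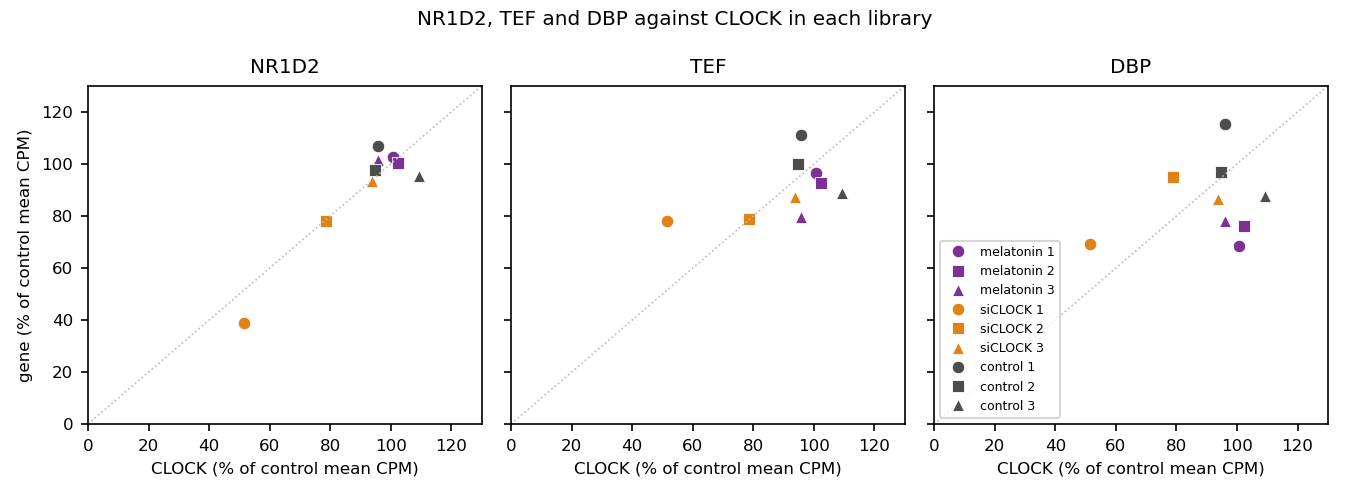
Each point is 1 library, with CLOCK on the horizontal and NR1D2, TEF or DBP on the vertical axis, all as percent of the control mean CPM; the dotted line marks equal percentages. In siCLOCK replicates 2 and 3 NR1D2 lies near the line (78.0% and 93.7%, with CLOCK at 78.7% and 93.8%), and in replicate 1 below it (38.7%, with CLOCK at 51.5%), while TEF stays between 77.9% and 87.2% in them and DBP is at 69.3%, 95.1% and 86.7%.

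NR1D1 (ENSG00000126368.5, chromosome 17, 40092787 to 40100725, − strand), the REV-ERB alpha repressor, did not pass in any comparison. It stood at 7.31, 9.20 and 7.25 CPM in melatonin, at 8.49, 9.83 and 9.86 CPM in siCLOCK and at 10.1, 10.2 and 8.86 CPM in control. Melatonin replicates 1 and 3 were the 2 lowest of the 9 libraries, while melatonin replicate 2 lay in the control range. The log2 fold change was -0.29 in melatonin against control (SE 0.12, interval -0.54 to -0.04, adjusted p = 0.0875), -0.05 in siCLOCK against control (interval -0.29 to 0.20, adjusted p = 0.964) and -0.24 in melatonin against siCLOCK (interval -0.50 to 0.01, adjusted p = 0.178). NR1D1 shares 263 of its 2772 exon bases with the thyroid receptor gene THRA on the other strand, and reads there cannot be assigned in counts that ignore strand. NR1D1 passed as lower in melatonin against control with the 6 libraries of that comparison alone (-0.29, adjusted p = 0.0422), without melatonin replicate 2 (-0.42, adjusted p = 0.0380) and in the counts of 1 strand (-0.40, adjusted p = 0.0473). It did not in the counts of the other strand (-0.0018, adjusted p = 0.995) or with the technical set as a term (adjusted p = 0.317). THRA itself stood at 21.9 CPM ± 1.71 (SD, n = 3) in melatonin, 24.8 ± 3.73 in siCLOCK and 22.7 ± 2.06 in control.

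The 2 REV-ERB genes thus differed in which libraries were low. The ratio of NR1D2 to NR1D1 per kb was 2.20, 1.72 and 2.20 in melatonin, 0.716, 1.25 and 1.49 in siCLOCK and 1.67, 1.51 and 1.69 in control. All melatonin libraries lay above all control libraries in this ratio, and all siCLOCK libraries below them. No test was made of it. The libraries of 43.4% of single genes did not overlap in melatonin against control, and those of 10.8% in siCLOCK against control.

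RORA (ENSG00000069667.15, chromosome 15, 60488284 to 61229319, − strand), the activator at the RORE, was low and did not differ detectably. It stood at 3.59, 4.86 and 3.84 CPM in melatonin, at 3.68, 3.22 and 4.09 CPM in siCLOCK and at 4.78, 4.23 and 2.97 CPM in control, and the groups overlapped. Its log2 fold changes were 0.04 in melatonin against control (interval -0.34 to 0.42), -0.13 in siCLOCK against control (interval -0.51 to 0.25) and 0.17 in melatonin against siCLOCK (interval -0.21 to 0.55), with adjusted p of 0.905, 0.929 and 0.575. With 53 to 94 reads a library, counting error alone was 11.6% in melatonin, 12.1% in siCLOCK and 11.6% in control, so a change smaller than these intervals was not detectable at this depth. The related receptor gene RORB stood at 9.44 CPM ± 0.503 (SD, n = 3) in melatonin, 8.58 ± 0.549 in siCLOCK and 9.68 ± 0.0695 in control.

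DBP (ENSG00000105516.10, chromosome 19, 48630030 to 48637438, − strand), a strongly rhythmic PAR-bZIP activator in many tissues, fell in melatonin against control. It stood at 11.7, 13.0 and 13.3 CPM in melatonin, at 11.8, 16.2 and 14.7 CPM in siCLOCK and at 19.6, 16.5 and 14.9 CPM in control. All melatonin libraries lay below all control libraries, and siCLOCK overlapped both. The log2 fold change was -0.43 in melatonin against control (SE 0.12, interval -0.68 to -0.17, adjusted p = 0.0153), -0.26 in siCLOCK against control (interval -0.51 to -0.01, adjusted p = 0.586) and -0.17 in melatonin against siCLOCK (interval -0.43 to 0.09, adjusted p = 0.369).

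The DBP call depended on single libraries and was lost with the technical set as a term. With that term the value was no smaller, but its SE rose from 0.12. The term is separated from melatonin only through the library labelled siCLOCK replicate 3, so this loss does not show dependence on the set. It ended without control replicate 1 (-0.31, adjusted p = 0.106), without melatonin replicate 1 (-0.38, adjusted p = 0.0671), with the set as a term (-0.50, SE 0.21, adjusted p = 0.186) and in the counts of either strand (-0.27 and -0.33, adjusted p = 0.0857 and 0.0758). DBP shares 661 of its 6544 exon bases with the kinase gene SPHK2 on the other strand. The strand counts held 1667 and 1760 DBP reads over the 9 libraries, each fewer than the 2432 of the count used here, and together 1.41 times that count. SPHK2 stood at 14.3 CPM ± 0.322 (SD, n = 3) in melatonin, 15.2 ± 2.18 in siCLOCK and 14.4 ± 1.10 in control.

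TEF (ENSG00000167074.14, chromosome 22, 41367333 to 41399326, + strand), the PAR-bZIP activator whose promoter E-boxes are shown above, did not pass in any comparison. It stood at 11.4, 11.0 and 9.38 CPM in melatonin, at 9.20, 9.30 and 10.3 CPM in siCLOCK and at 13.1, 11.8 and 10.5 CPM in control. The siCLOCK libraries lay below all control libraries, the nearest being replicate 3 of both groups, and melatonin overlapped both. The log2 fold change was -0.30 in siCLOCK against control (SE 0.11, interval -0.53 to -0.07, adjusted p = 0.430), -0.16 in melatonin against control (interval -0.39 to 0.07, adjusted p = 0.317) and 0.14 in melatonin against siCLOCK (interval -0.10 to 0.38, adjusted p = 0.439).

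HLF (ENSG00000108924.13, chromosome 17, 55265012 to 55325065, + strand), the last of the PAR-bZIP activators, was near the limit of detection. It had 7, 4 and 7 reads in melatonin, 6, 3 and 6 in siCLOCK and 7, 7 and 5 in control, 52 in all, and was not tested. NFIL3 (ENSG00000165030.3, chromosome 9, 91409045 to 91423862, − strand), the D-box repressor, had the narrowest relative range of the tested members over the 9 libraries. It stood at 28.4, 24.8 and 28.0 CPM in melatonin, at 28.8, 27.0 and 24.4 CPM in siCLOCK and at 25.7, 25.5 and 25.9 CPM in control. The groups overlapped, and the log2 fold changes were 0.07 in melatonin against control (interval -0.11 to 0.25), 0.06 in siCLOCK against control (interval -0.12 to 0.24) and 0.02 in melatonin against siCLOCK (interval -0.16 to 0.19), with adjusted p of 0.582, 0.932 and 0.927.

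**Figure D4:**
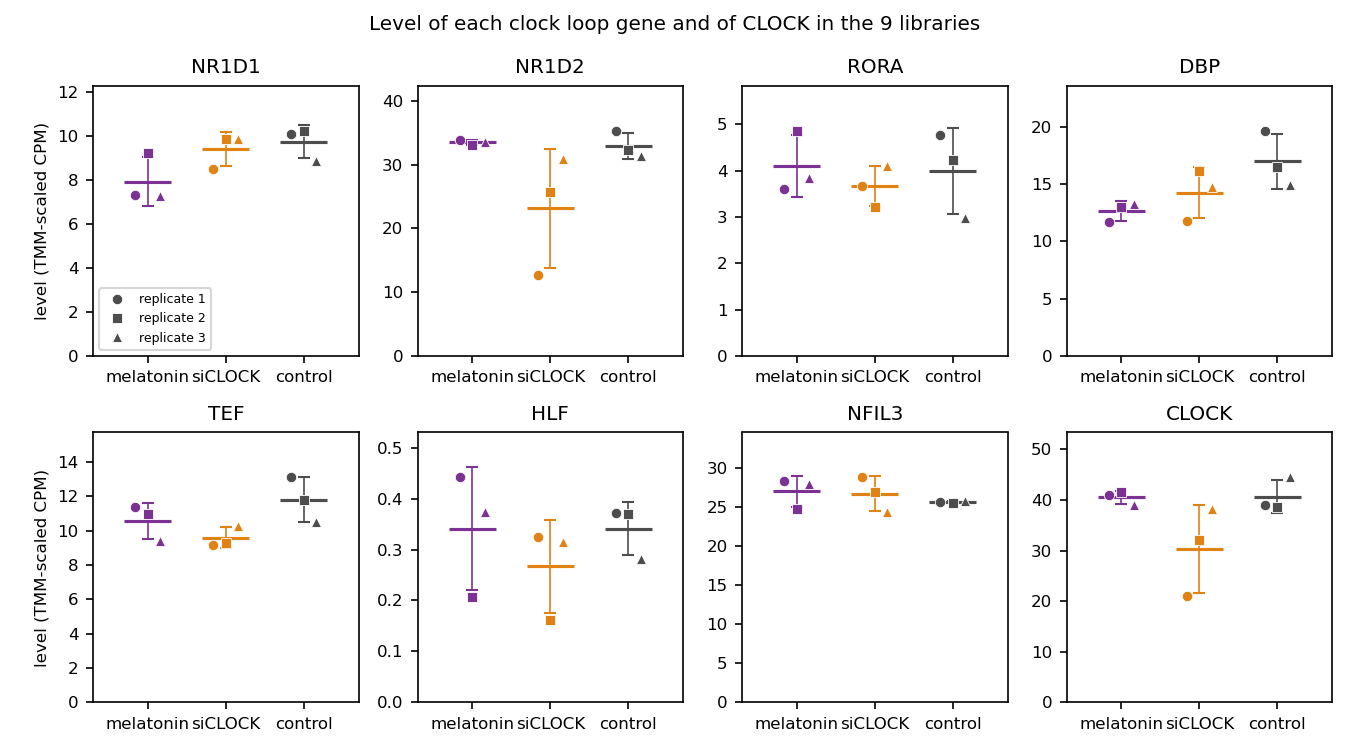
Points are the 9 libraries, as TMM-scaled CPM on axes that start at 0, with lines and bars for the mean and SD of 3 libraries. DBP lies lower in all melatonin than in all control libraries, and NR1D2 and CLOCK are lowest in siCLOCK replicate 1 at 12.8 and 20.9 CPM.

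The balance of D-box activators and their repressor followed DBP and TEF. The sum of DBP, TEF and HLF over NFIL3, per kb, was 0.313, 0.365 and 0.304 in melatonin, 0.275, 0.345 and 0.383 in siCLOCK and 0.473, 0.415 and 0.367 in control. Every melatonin library lay below every control library, the nearest pair being 0.365 in melatonin and 0.367 in control. Among single genes, 43.4% had libraries that did not overlap between these groups, and the ratio was not tested. The ratio of RORA to the summed REV-ERB genes was 0.0249 to 0.0316 in melatonin, 0.0237 to 0.0411 in siCLOCK and 0.0203 to 0.0289 in control, and the groups overlapped.

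In all, 1 of 6 tested members passed in melatonin against control (DBP, lower), where 23.1% of all genes passed and 12.1% were lower. None passed in siCLOCK against control with edgeR, where 0.122% of all genes did, 0.0547% higher and 0.0669% lower. In that comparison 3 of the 6 tested members had an unadjusted p under 0.05, beside 1355 of all 16441 genes tested. There limma-voom called 0 members. DESeq2 also called 0, but it gave NR1D1, RORA, DBP and TEF no adjusted p and so could not call them. In melatonin against siCLOCK 1 passed (NR1D2, higher), where 17.5% of all genes passed and 7.43% were higher. DESeq2 called 0 and limma-voom 1 there, and each called 1 in melatonin against control. The libraries of the 2 groups did not overlap for 2 of 6 members in siCLOCK against control, both lower, beside 5.06% of all genes that were lower and 5.75% that were higher in this way. They did not overlap for DBP in melatonin against control, beside 43.4% of all genes in either direction and 21.4% lower, nor for NR1D2 in melatonin against siCLOCK, beside 34.2% in either direction. These shares do not set the members apart from other genes in the 2 comparisons with melatonin. Both treatments are set against the same 3 controls, and melatonin enters 2 of the comparisons.

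**Figure D5:**
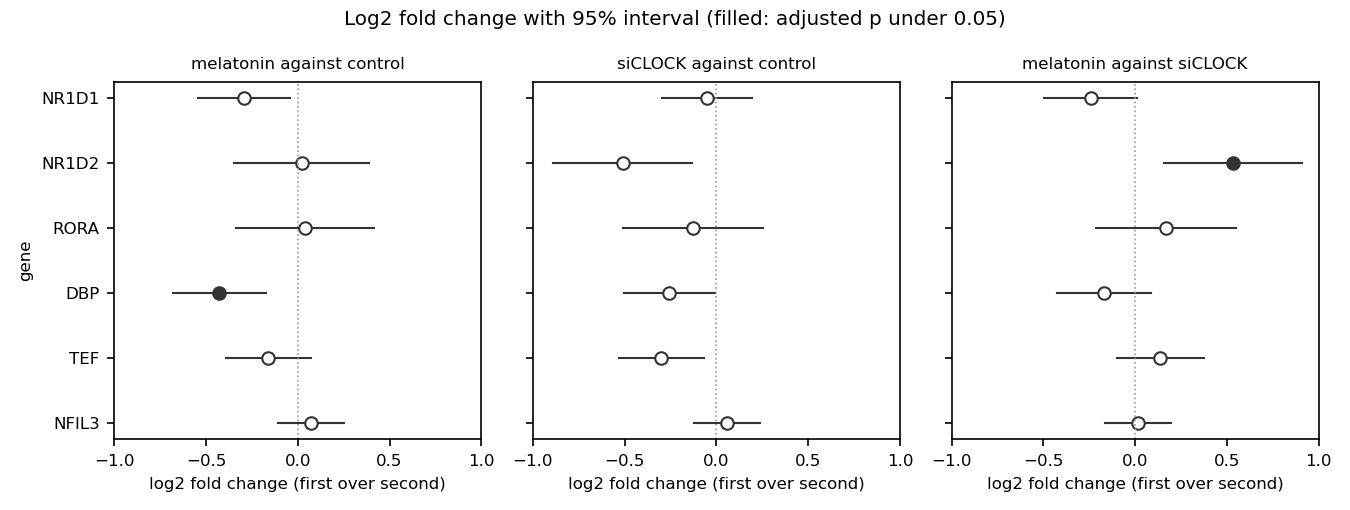
Circles are log2 fold changes of the 6 tested genes (first group over second) with 95% intervals, filled at an adjusted p under 0.05. The filled circles are DBP at -0.43 in melatonin against control and NR1D2 at 0.53 in melatonin against siCLOCK.

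Around the loop, 69 distinct genes in 7 lists covered its E-box drivers, targets at RORE and D-box, cofactors, heme supply, relatives and the regulators of protein stability, and 64 were tested. In melatonin against control 7 rose and 10 fell, beside 11% and 12.1% of all genes, with a median log2 fold change of -0.01 and of 0.01 over all genes. With the technical set as a term, 4 of these genes remained calls of the same sign, where 4.68% of all genes passed. In siCLOCK against control none of the 64 passed with edgeR, and 7 had an unadjusted p under 0.05, beside 1355 of all 16441 genes tested. DESeq2 called 2 of the listed genes in this comparison and limma-voom 0. With the set as a term 3 listed genes passed there, beside 0.706% of all genes. Without the library labelled siCLOCK replicate 3, 3 listed genes passed, beside 0.617% of all genes. In melatonin against siCLOCK 8, among them the siRNA's target CLOCK, were higher and 7 lower, beside 7.43% and 10.1% of all genes. Of these, 3 remained calls of the same sign with the set as a term, where 5 listed genes and 5.85% of all genes passed.

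Of 12 genes of the E-box arm, 1 rose and 3 fell in melatonin against control (list median -0.14). NPAS2, a CLOCK paralog and a target of the REV-ERB receptors, rose to 28.2 CPM ± 1.12 (SD, n = 3) in melatonin, against 20.4 ± 1.42 in control (log2 fold change 0.47, adjusted p = 4.66e-04). The period gene PER3 fell by 0.46, the repressor BHLHE40 by 0.50 and the cryptochrome gene CRY1 by 0.41 on the log2 scale, and with the set as a term only NPAS2 of these 4 passed. ARNTL, the RORE target at the centre of the loop, was lower in melatonin than in siCLOCK (-0.26, adjusted p = 0.0311). It stood at 24.7 CPM ± 1.58 in melatonin and 29.6 ± 1.68 in siCLOCK. CRY1 was at -0.60 in the same comparison, with 52.6, 32.9 and 31.7 CPM in siCLOCK replicates 1 to 3. Of 10 tested genes linked to the RORE, 4 were lower there, beside 10.1% of all genes, and 1, CLOCK, was higher (0.41), beside 7.43%. CLOCK is the siRNA's own target, so its difference from siCLOCK is no separate result for the RORE. With the set as a term 0 of the 10 passed in melatonin against siCLOCK. A part of NR1D2, itself higher there, was not tested. Both ARNTL and CRY1 ended as calls with the set as a term (adjusted p = 0.201 and 0.311).

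Of 10 tested genes linked to the RORE, 1 rose and 3 fell in melatonin against control (median -0.09). NPAS2 rose, and CRY1 and PLIN2, which encodes a lipid droplet protein, were among those that fell, PLIN2 with 50.8 CPM ± 0.262 (SD, n = 3) in melatonin and 61.3 ± 2.27 in control (-0.27, adjusted p = 0.00715). Of 9 tested genes linked to the D-box, 1 rose and 3 fell (median -0.07). The drug efflux pump gene ABCB1 rose by 0.34, and ALAS1, the first enzyme of heme synthesis, was at -0.19 (adjusted p = 0.0492) beside PER3 and CRY1. With the set as a term none of the named genes of these 2 lists other than NPAS2 passed, the adjusted p being 0.614 for PLIN2, 0.307 for ABCB1 and 0.911 for ALAS1. ALAS1, NPAS2, CRY1 and PER3 stand in more than 1 list.

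Of 13 tested cofactors of REV-ERB and ROR, 3 rose and 2 fell in melatonin against control (median 0.12). The coactivators NCOA1 (0.30), NCOA2 (0.31) and EP300 (0.27) were the 3 that rose. Of 12 heme genes, the synthesis enzyme UROS rose (0.23) and ALAS1 fell. Of 8 tested relatives, the bZIP factor CEBPD rose (0.66, adjusted p = 1.39e-04) and CEBPG fell (-0.53, adjusted p = 1.22e-04), and both remained calls of that sign with the set as a term. In siCLOCK against control CEBPG was the member of these lists nearest to the threshold (-0.41, adjusted p = 0.0502), and with the set as a term it passed (-0.45, adjusted p = 0.0141), as did NPAS2 (0.41, adjusted p = 0.0324). Of 10 stability regulators, the deubiquitinase USP2 fell (-0.40) in melatonin against control. With the set as a term NCOA1, NCOA2, EP300, UROS and USP2 did not pass (adjusted p = 0.183, 0.762, 0.0838, 0.137 and 0.193).

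The genes whose pattern over the 9 libraries was most like a member's were ranked by Pearson's r of log2 CPM among 11169 genes of at least 5 CPM, as a description. For NR1D2 they were the immunophilin gene FKBP5 (r = 0.98), PHF3 (0.96) and CLOCK (0.96), which had rank 3 of 11168. FKBP5 stood at 54.3, 52.7 and 53.2 CPM in melatonin, 40.5, 49.9 and 52.7 CPM in siCLOCK and 55.7, 54.9 and 54.8 CPM in control, again lowest in siCLOCK replicate 1. The likeness of NR1D2 and CLOCK rests on siCLOCK replicates 1 and 2, without which r was -0.16 over 7 libraries. For NR1D1 the nearest were the angiogenic factor VEGFA (0.94), MCUB (0.93) and AC097534.2 (0.93), for DBP HES7 (0.97), PALM3 (0.96) and LINC00963 (0.96), for TEF GLI1 (0.92), UGCG (0.88) and B4GALT4 (0.87), and for NFIL3 RAD50 (0.92), DYRK3 (0.88) and EIF2AK4 (0.87). CLOCK ranked 433rd for TEF, 3370th for DBP and 5390th for NR1D1. The 9 points share treatments and technical sets.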

How the data were processed

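Gene counts in 9 H1299 libraries were used as the authors deposited them, 1 library per file. Per the submitters' processing notes, reads were handled with STAR 2.7.9a on GRCh38 (hg38); annotation and counting options are not given in the sources used here. A file has 1 column that ignores strand and 1 for either strand; its 4 summary lines stayed out of library sizes. All 58721 identifiers matched GENCODE release 29. Strand totals differed by a ratio of 1.01 to 1.05, so counts regardless of strand were used.

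The members and gene lists, and the division into technical sets at 1.8% unmapped reads, were chosen with earlier results of these data known. In R 4.3.3 with edgeR 4.0.16, filterByExpr kept 16441 genes, libraries were TMM-scaled, and the 3 groups entered a single quasi-likelihood model over the 9 libraries (biological coefficient of variation 0.0682). The procedure was checked on simulated data. Two-sided p-values were adjusted by Benjamini-Hochberg over all genes tested, with 0.05 as the threshold. The SE is the absolute log2 fold change over the square root of F. Samples of a group were compared with each other and none were near duplicates. Alternatives were DESeq2 1.42.0, limma-voom (limma 3.58.1), RLE scaling, other filters, only the 6 libraries compared, a replicate block, strand columns, the set term, each library left out and an adjusted p under 0.01. One was chosen after seeing the data, melatonin against the library labelled siCLOCK replicate 3 alone. Every member was named; from each list, up to 4 genes past the threshold, or the 1 with the smallest p, and for likeness the top 3. Promoter sequences are from RefSeq and were found for all 7 genes; they were matched by symbol. Intervals of fold changes are 95%. Values of some listed genes are not reported here.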

Additional observations from a re-analysis of the deposited data

How the results depend on the processing

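The replicate numbers do not pair the samples: same-numbered libraries had correlations of deviations from their group means between -0.09 and 0.06. With the number as a replicate block, 1, 0 and 1 members passed in melatonin against control, siCLOCK against control and melatonin against siCLOCK, as without it, and over all genes 3533, 12 and 2712 passed in place of 3790, 20 and 2876. In siCLOCK against control, 1 member (NR1D2) passed in place of 0 with no filter on low counts and with the set term, and without single libraries the count was 0 to 1. CLOCK went to -0.42 (adjusted p = 5.79e-04) with no filter and to -0.62 (adjusted p = 0.0185) with the set term, and lay between -0.62 and -0.21 without single libraries, the lowest without the library labelled siCLOCK replicate 3. In melatonin against control, 2 members passed in place of 1 with only the 6 libraries compared (DBP and NR1D1), and 0 passed at an adjusted p under 0.01, in strand column 3 and with the set term; without single libraries the count was 0 to 2. In melatonin against siCLOCK, 0 passed in place of 1 at an adjusted p under 0.01, with DESeq2, with a filter of 5 CPM in 3 libraries, with only the 6 libraries compared, in strand column 4 and with the set term, and 0 to 1 passed without single libraries. In strand column 4 the 1 member past the threshold in melatonin against control was NR1D1, not DBP. Values that changed sign, none of them passing, were NR1D2 (-0.66) and RORA (-0.21) in melatonin against control with the set term, RORA in siCLOCK against control in strand column 4 (0.13), and, in strand column 3, NFIL3 in siCLOCK against control (-0.012) and NR1D1 (0.055) and TEF (-0.016) in melatonin against siCLOCK. Without single libraries, NR1D1 lay between -0.11 and 0.017 and RORA between -0.30 and 0.021 in siCLOCK against control, NR1D2 between -0.013 and 0.072 and RORA between -0.13 and 0.19 in melatonin against control, and NFIL3 between -0.048 and 0.075 in melatonin against siCLOCK. Over all genes, 20 calls in siCLOCK against control became 69 with DESeq2, 211 with no filter, 116 with the set term, 5 with the 5 CPM filter, 7 with the 6 libraries, 9 and 13 in the strand columns, and 2 to 107 without single libraries. The 3790 calls in melatonin against control became 770 with the set term and 2451 to 4646 without single libraries, and the 2876 in melatonin against siCLOCK became 961 and 1650 to 3858. The cause of these changes was not tested. The set term takes in how siCLOCK replicates 1 and 2 differ from the library labelled siCLOCK replicate 3, so its NR1D2 value is no separate measure of melatonin. For the same reason, a call lost with the term does not by itself show that the call depended on the set. RORA and HLF are limited by their depth.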
